A study of Mus musculus with 9 samples.

Results

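The translation factors and aminoacyl-tRNA synthetases of mouse liver were followed through 2 regimens of dietary restriction. Members were all genes of the deposited expression table whose symbol is that of an initiation factor (Eif1 to Eif6), an elongation factor (Eef1 or Eef2), a termination factor (Etf1 or Gspt) or a synthetase named by its amino acid and "ars", with a mean level of at least 1 TPM over the 9 libraries. TPM is a transcript level corrected for transcript length and for the total of the library. The rule found 64 members among the 4665 genes that reached the same level and the 5608 genes listed. Another 2 symbols matched but lay under the minimum, Eif5a2 with a mean of 0.0622 TPM and Eef1akmt3 with 0.159 TPM, and the member nearest above it was Eef2k with 1.43 TPM. By role the members were 27 initiation factors, 5 elongation and termination factors, 9 regulators, 11 cytosolic synthetases and 12 mitochondrial synthetases. Etf1, Eef2, Eif4ebp2, Eif4ebp3 and Eprs were not analysed here.

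Livers came from wild-type C57BL/6J mice of 3 groups with 3 libraries each. FED mice ate a standard diet ad libitum (replicates 1, 2 and 3). Intermittently fasted mice (IF, replicates 1, 2 and 3) had no food for 24 h, 2 times per week, and FMD mice (replicates 1, 2 and 4) received a fasting-mimicking diet for 3 days. No group carried a transgene or a deletion, and the labels give no age. RNA was measured by strand-specific sequencing of polyadenylated transcripts from whole liver, so that fewer cells of a type and less RNA per cell cannot be told apart.

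Translation starts when the initiation factors bring the small ribosomal subunit, the initiator tRNA and the mRNA together. eIF2 carries the initiator tRNA, eIF3 holds the small subunit, and the eIF4 group binds and unwinds the cap end of the mRNA. Synthetases load each tRNA with its amino acid, in the cytosol or, by separate enzymes, in mitochondria. Nutrient supply acts on initiation through 2 known switches, the phosphorylation of eIF2α by the eIF2 kinases and the release of eIF4E from the 4E-BP inhibitors by mTORC1.

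A few properties of the table bear on all values. The listed genes summed to between 26.3% and 43.0% of a library's whole TPM, so sequencing depth is unknown and no counting error can be given. The median gene was higher in both restricted groups: its log2 fold change was 0.24 in IF vs FED, 0.48 in FMD vs FED and 0.24 in FMD vs IF. Each comparison is therefore given on the deposited values and after scaling, in which each library was divided by its median ratio to the average library (by 0.815 to 0.843 for FED libraries, 0.962 to 1.03 for IF libraries, and 1.43, 1.14 and 1.09 for FMD replicates 1, 2 and 4). A scaled change is a change relative to the typical listed gene. Overlap between groups is given on the deposited values unless stated otherwise. FMD replicate 1 stood apart: it was the highest of the 3 FMD libraries in 58 of the 64 members (90.6%), against 71.7% of all genes tested, and after scaling in 41 members (64.1%), against 35.7%. The median coefficient of variation over members was 5.70% among FED libraries, 6.73% among IF and 23.1% among FMD libraries. None of the 8 hepatocyte markers fixed for this check is in the table, so the label liver could not be checked by them, and none of the endothelial, leukocyte or erythroid markers is listed either. The 1 listed macrophage marker of 8, Cd68, had 64.02 TPM in FMD replicate 1 and 3.14 to 12.16 TPM in the other libraries. Of the 7 stellate markers 3 are listed, Dcn, Col1a1 and Pdgfrb. Dcn had 64.1 to 90.1 TPM among FED libraries, 120 to 156 TPM among IF libraries, and 213, 132 and 106 TPM in FMD replicates 1, 2 and 4. Col1a1 (0.27 to 1.63 TPM) and Pdgfrb (0.95 to 2.40 TPM) overlapped between all groups. The 1 listed cholangiocyte marker of 5, Krt19, had 0.76 to 4.07 TPM and overlapped too. The part of these cells in the results was not tested.

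In IF vs FED, most initiation factors lay above the typical gene and most synthetases below it. A gene was called at an adjusted p under 0.05 (limma, Benjamini-Hochberg over the 4665 genes) and an absolute log2 fold change over 0.585. On the deposited values 4 of 64 members, Eif1, Eif4b, Eef1a1 and Eif3e, rose, which is 6.25% against 10.3% of all genes, and the median member changed by 0.24, as did the median gene. None fell, against 1.59% of all genes, and 1 was lower at an unadjusted p under 0.05 in limma, against 3.34%. After scaling limma called no member higher, against 3.69% of all genes, and 2, Cars and Tars2, lower (3.13%, against 3.45%). At an unadjusted p under 0.05 in limma, 7 members were higher and 11 lower after scaling, against 14.9% and 14.5% of all genes. The median log2 fold change was 0.37 for initiation factors, 0.34 for elongation and termination factors, 0.24 for regulators, 0.01 for cytosolic and 0.03 for mitochondrial synthetases. Above the median of all genes were 21 of 27 initiation factors but 2 of 11 cytosolic and 2 of 12 mitochondrial synthetases.

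In FMD vs FED, 31 of 64 members rose on the deposited values, which is 48.4% against 35.5% of all genes, with a median of 0.58 against 0.48. None fell, against 1.59% of all genes, and 0 were lower at an unadjusted p under 0.05 in limma, against 2.83%. After scaling 2 members, Eif6 and Eif4ebp1, rose (3.13%, against 5.49% of all genes), and limma called none lower, against 5.64%. Lower after scaling at an unadjusted p under 0.05 in limma were 13 members, against 18.1% of all genes. Much of the count rested on FMD replicate 1. Without it 15 members rose (23.4% against 23.1% of all genes), all among the 31. None fell, against 1.91% of all genes, with 0 lower at an unadjusted p under 0.05 in limma (3.90% of all genes). After scaling without FMD replicate 1 limma called none higher, against 5.57% of all genes, and 3 lower, Cars, Tars and Cars2 (4.69%, against 5.49%). Higher in that fit at an unadjusted p under 0.05 in limma were 9 members, against 17.6% of all genes. The class medians were 0.68 for initiation factors, 0.74 for elongation and termination factors, 0.51 for regulators, 0.45 for cytosolic and 0.25 for mitochondrial synthetases, and without FMD replicate 1 they were 0.50, 0.53, 0.57, 0.31 and 0.16, beside 0.37 for all genes.

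In FMD vs IF, Eif2ak3 and Eif4ebp1 rose, which is 3.13% of members against 4.67% of all genes. None fell, against 0.472% of all genes, and 0 were lower at an unadjusted p under 0.05 in limma, against 2.59%. After scaling Eif2ak3 was the 1 member called higher (1.56%, against 1.11% of all genes) and none was called lower, against 1.11%. At an unadjusted p under 0.05 in limma 1 was lower after scaling, against 11.9% of all genes. The comparisons share libraries: FED serves IF and FMD, and FMD replicate 1 is in both comparisons of FMD.

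**Figure D1:**
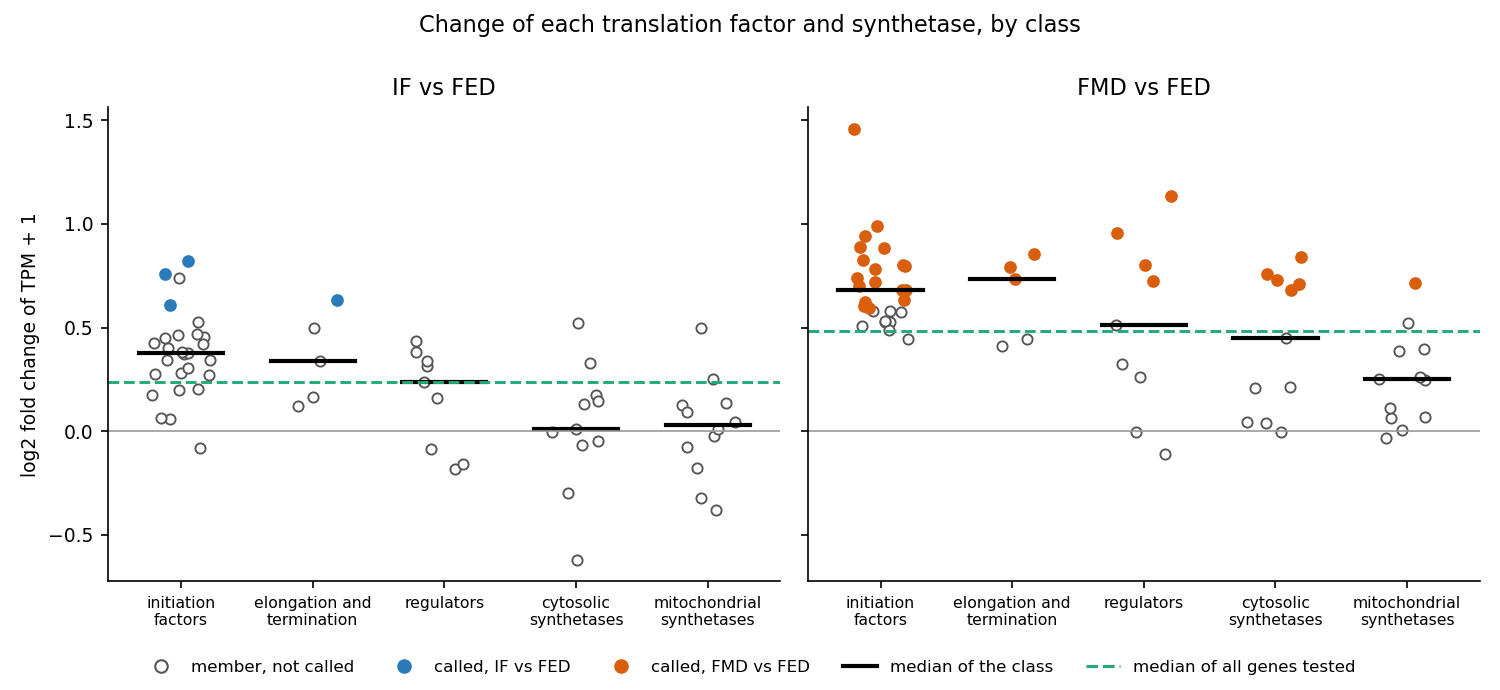
Log2 fold change of TPM + 1 of each of the 64 members in IF vs FED (left) and FMD vs FED (right), by class, on the deposited values. Filled points were called, black bars are class medians and the dashed line is the median of all 4665 genes (0.24 and 0.48), above which the initiation factors mostly lie and below which the mitochondrial synthetases mostly lie.

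Among the initiation factors, Eif1 changed most in IF. eIF1 guards the choice of the start codon during scanning. Eif1 had 273, 266 and 283 TPM in FED, 473, 489 and 490 TPM in IF, and 547, 618 and 479 TPM in FMD replicates 1, 2 and 4. All restricted libraries lay above all FED libraries, and IF and FMD overlapped. Its log2 fold change was 0.82 ± 0.12 (SE, limma adjusted p = 0.00119) in IF and 0.99 ± 0.12 (adjusted p = 0.000175) in FMD. Neither call was lost without any 1 library. After scaling it was 0.54 in IF (limma adjusted p = 0.0206) and 0.44 in FMD (adjusted p = 0.0351), under the limit of fold change.

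Eif1a, for eIF1A, which works beside eIF1 on the small subunit, had 21.3, 20.7 and 26.1 TPM in FED, 33.04, 31.28 and 29.64 TPM in IF, and 68.5, 34.8 and 36.2 TPM in FMD. The groups did not overlap on the deposited values but did after scaling, and FMD replicate 1 was far above the other FMD libraries. The fitted log2 fold change was 0.45 in IF (limma adjusted p = 0.154) and 0.94 ± 0.22 in FMD (adjusted p = 0.00488), or 0.63 without FMD replicate 1 (adjusted p = 0.00150). After scaling it was 0.40 in FMD, not called (limma adjusted p = 0.0915). Reads of Eif1a and of its near-identical copy Eif1ax may be split between them. Of the 5 members of the eIF1 and eIF1A group, 1 rose in IF (10.3% of all genes did) and 4 in FMD (35.5% of all genes), and 2 in FMD without replicate 1 (23.1% of all genes). After scaling limma called none of the 5. At an unadjusted p under 0.05 in limma 1 was higher and 1 lower in IF, beside 14.9% and 14.5% of all genes, and 2 were higher in FMD, beside 18.2%.

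Eif2s1 encodes eIF2α, the subunit that the eIF2 kinases phosphorylate. It had 13.9, 13.6 and 13.6 TPM in FED, 13.4, 11.9 and 13.4 TPM in IF, and 30.5, 20.7 and 14.9 TPM in FMD. The IF libraries were just below FED and the FMD libraries above it. On the log2 scale the change was -0.08 in IF (limma adjusted p = 0.781) and 0.59 ± 0.20 in FMD (adjusted p = 0.0244). The FMD call was lost without FED replicate 1, 2 or 3 (adjusted p 0.0571, 0.0600 and 0.0588) and without FMD replicate 1 (0.34), and after scaling the change was 0.07 (limma adjusted p = 0.770).

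Eif2b2 encodes the β subunit of eIF2B, which reloads eIF2 with GTP. It had 16.3, 16.7 and 17.5 TPM in FED, 21.6, 19.2 and 16.9 TPM in IF, and 34.0, 20.3 and 21.7 TPM in FMD. IF overlapped FED and FMD did not. The log2 fold change reached 0.18 in IF (limma adjusted p = 0.479) and 0.53 in FMD (adjusted p = 0.0239), the latter under the limit of fold change and -0.00 after scaling.

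The 10 listed subunits of eIF3 moved within a narrow range. Their log2 fold changes ran from 0.20 to 0.61 in IF, where 1 rose (10%, beside 10.3% of all genes). In FMD they ran from 0.53 to 0.89, where 7 rose (70%, beside 35.5%), or 3 without FMD replicate 1 (30%, beside 23.1%). After scaling the range was -0.08 to 0.33 in IF and -0.02 to 0.35 in FMD, and limma called none. At an unadjusted p under 0.05 in limma 2 were higher in IF and 3 in FMD, beside 14.9% and 18.2% of all genes. Eif3e had 62.8, 59.9 and 63.0 TPM in FED, 89.8, 101.9 and 92.9 TPM in IF, and 129.5, 89.5 and 88.8 TPM in FMD. All restricted libraries were above FED. Its log2 fold change was 0.61 ± 0.15 in IF (limma adjusted p = 0.0154) and 0.70 ± 0.15 in FMD (adjusted p = 0.00305). The IF call was lost without FED replicate 1 (adjusted p = 0.0521), FED replicate 2 (0.58, adjusted p = 0.0575) or IF replicate 2 (0.55, adjusted p = 0.0723), and the FMD change was 0.52 without FMD replicate 1, under the limit.

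Eif3j1, for the loosely bound j subunit, had 28.6, 33.5 and 33.5 TPM in FED, 39.4, 46.1 and 39.1 TPM in IF, and 71.7, 57.2 and 52.0 TPM in FMD. The 3 groups did not overlap. The fitted log2 fold change was 0.37 in IF (limma adjusted p = 0.0778) and 0.89 ± 0.14 in FMD (adjusted p = 0.000765), which was 0.76 without FMD replicate 1 and, after scaling, 0.35 (limma adjusted p = 0.0293), under the limit. After scaling IF overlapped FED. Its paralog Eif3j2 is nearly identical, so the split of reads between them is uncertain.

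In the eIF4 group, Eif4b stood out in IF. eIF4B stimulates the helicase eIF4A. Eif4b had 63.5, 73.9 and 76.7 TPM in FED, 113.7, 127.0 and 122.5 TPM in IF, and 134.4, 112.5 and 128.9 TPM in FMD. All restricted libraries were above all FED libraries, and IF and FMD overlapped. On the log2 scale the change was 0.76 ± 0.12 in IF (limma adjusted p = 0.00196) and 0.80 ± 0.12 in FMD (adjusted p = 0.000580). Both calls held without any 1 library. After scaling the values were 0.48 (limma adjusted p = 0.0222) and 0.26 (adjusted p = 0.137).

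The helicase genes Eif4a1 and Eif4a2 were the most abundant of the eIF4 group. Eif4a1 had 178, 161 and 170 TPM in FED, 226, 225 and 210 TPM in IF, and 421, 294 and 248 TPM in FMD. No overlap was seen between the 3 groups on the deposited values, while IF overlapped FED after scaling. The log2 fold change reached 0.37 in IF (limma adjusted p = 0.128) and 0.88 ± 0.17 in FMD (adjusted p = 0.00198), or 0.67 without FMD replicate 1 and 0.33 after scaling (limma adjusted p = 0.0565). Eif4a2 had 102, 116 and 113 TPM in FED, 122, 133 and 146 TPM in IF, and 166, 175 and 134 TPM in FMD. Both restricted groups were above FED, but the change was 0.27 in IF (limma adjusted p = 0.147) and 0.51 in FMD (adjusted p = 0.00723), under the limit, and after scaling it turned to -0.01 and -0.04. Of the 8 members of the group 1 rose in IF and 4 rose in FMD (3 without FMD replicate 1), beside 10.3% and 35.5% (23.1%) of all genes.

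Eif6 had the largest change of all members in FMD. eIF6 binds the large ribosomal subunit and keeps it from joining the small one too early. It had 36.9, 30.2 and 34.5 TPM in FED, 62.6, 54.8 and 54.0 TPM in IF, and 184.8, 74.3 and 61.2 TPM in FMD. Both restricted groups were above FED, and IF and FMD overlapped through FMD replicate 4. Its log2 fold change was 1.46 ± 0.32 in FMD (limma adjusted p = 0.00355), and 0.98 without FMD replicate 1 (adjusted p = 0.000297). In IF it was 0.74 ± 0.32 (limma adjusted p = 0.113), not called. Without FMD replicate 1, which enters the shared spread, the IF change of 0.74 was called (limma adjusted p = 0.000975). After scaling the FMD change was 0.91 ± 0.25 (limma adjusted p = 0.0298), a call lost when any 1 FED library was left out (adjusted p up to 0.0938) and when FMD replicate 1 was, where it was 0.55.

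Elongation was led in level by Eef1a1, the most abundant member. eEF1A brings loaded tRNA to the ribosome. It had 3285, 3012 and 3478 TPM in FED, 4796, 5237 and 5090 TPM in IF, and 7054, 5267 and 5464 TPM in FMD. The 3 groups did not overlap. The fitted log2 fold change was 0.63 ± 0.14 in IF (limma adjusted p = 0.00991) and 0.85 ± 0.14 in FMD (adjusted p = 0.000858). After scaling the values were 0.35 for IF (limma adjusted p = 0.0735) and 0.30 for FMD (adjusted p = 0.0935), and IF and FMD overlapped. The IF call was lost without FED replicate 2 (0.58, adjusted p = 0.0445) or IF replicate 2 (0.60, adjusted p = 0.0506).

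Eif5a, for eIF5A, which helps the ribosome past slow peptide bonds and carries the modified residue hypusine, had 386, 293 and 319 TPM in FED, 392, 372 and 350 TPM in IF, and 551, 417 and 369 TPM in FMD. Both restricted groups overlapped FED. On the log2 scale the change was 0.17 in IF (limma adjusted p = 0.460) and 0.41 in FMD (adjusted p = 0.0433), under the limit, and after scaling it turned to -0.11 and -0.14. Eef1a1, Eif4a1 and Eif5a have processed pseudogenes that could take or give reads.

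**Figure D2:**
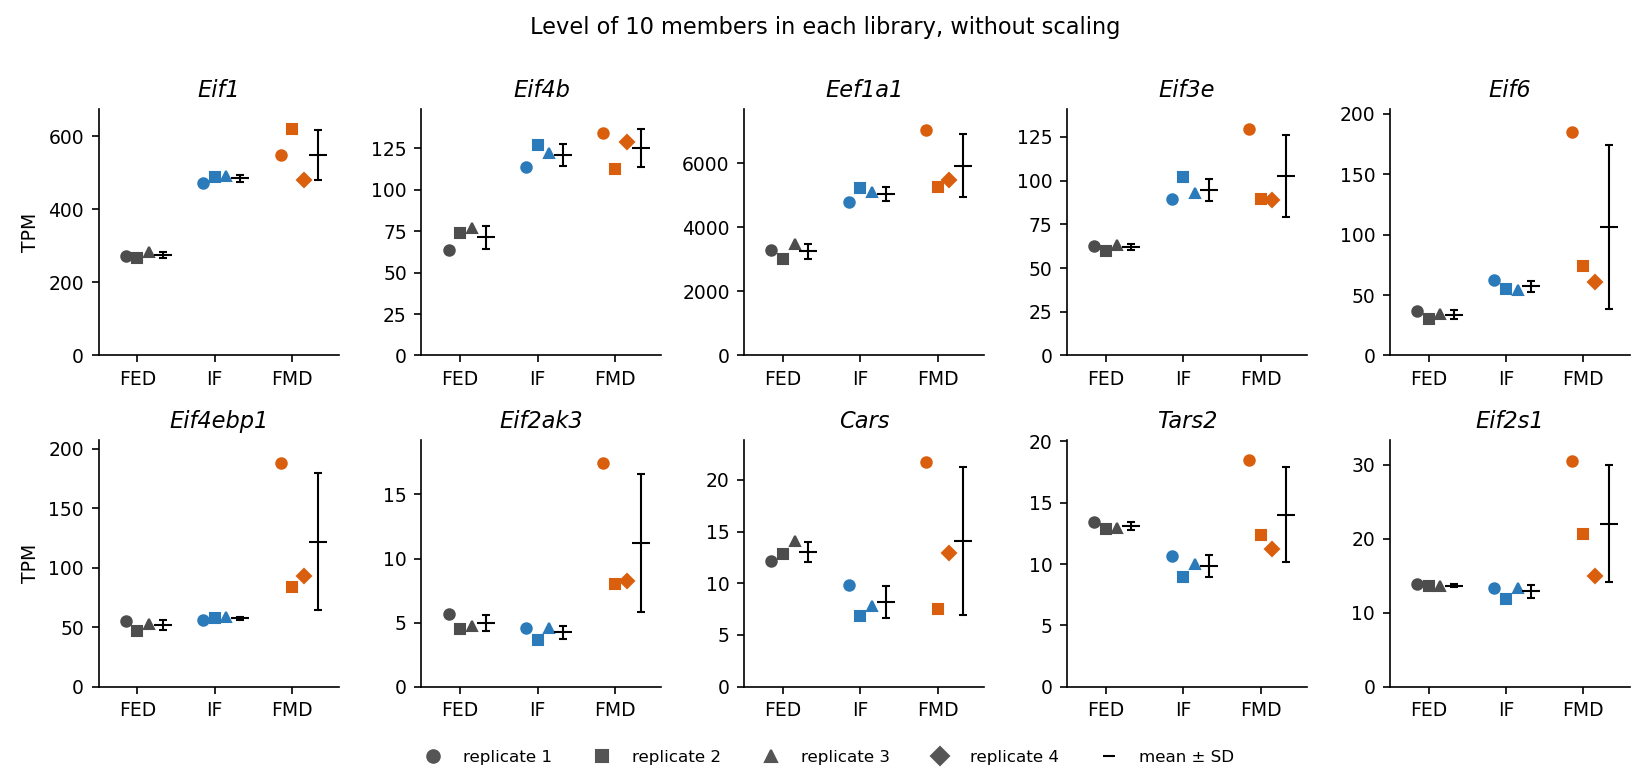
TPM of 10 members in each library (marker shape gives the replicate number), with mean and SD of each group of 3, on linear axes from 0 without scaling. Eif1, Eif4b, Eef1a1, Eif3e and Eif6 are above FED in all IF and FMD libraries, FMD replicate 1 is the highest FMD library in all panels but Eif1, and Cars and Tars2 are below FED in all IF libraries.

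The regulators differed among themselves. Eif4ebp1 encodes 4E-BP1, the inhibitor of the cap-binding protein eIF4E. It had 55.0, 47.0 and 52.6 TPM in FED, 56.1, 57.9 and 58.7 TPM in IF, and 188.2, 84.1 and 93.4 TPM in FMD. IF lay just above FED and the 3 FMD libraries above both. The log2 fold change reached 0.16 ± 0.24 in IF (limma adjusted p = 0.644), 1.13 ± 0.24 in FMD vs FED (adjusted p = 0.00330) and 0.97 ± 0.24 in FMD vs IF (adjusted p = 0.0413). Without FMD replicate 1 the FMD changes were 0.77 against FED (adjusted p = 0.000297) and 0.61 against IF (adjusted p = 0.00982). After scaling they were 0.59 (limma adjusted p = 0.0460) and 0.70 (adjusted p = 0.0630), and 0.34 and 0.46 when FMD replicate 1 was also left out. The scaled call against FED was lost without any 1 of the FED or IF libraries or FMD replicate 1 (adjusted p up to 0.134), and the unscaled call against IF without any 1 of the FED or IF libraries (adjusted p 0.0653 to 0.135). Within a library, the TPM of Eif4ebp1 over that of Eif4e, which needs no scaling, was 4.98, 4.53 and 5.41 in FED, 4.83, 5.54 and 5.54 in IF, and 8.66, 6.08 and 8.48 in FMD.

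Of the 4 eIF2 kinases, each of which answers another stress, Eif2ak3 changed. It encodes PERK, the kinase of the endoplasmic reticulum. It had 5.64, 4.50 and 4.73 TPM in FED, 4.54, 3.68 and 4.54 TPM in IF, and 17.5, 8.03 and 8.21 TPM in FMD. The FMD libraries were above all others, and IF overlapped FED. Its log2 fold change was -0.18 in IF (limma adjusted p = 0.591), 0.96 ± 0.24 in FMD vs FED (adjusted p = 0.00650) and 1.14 ± 0.24 in FMD vs IF (adjusted p = 0.0282). Without FMD replicate 1 the last 2 were 0.62 (adjusted p = 0.00239) and 0.80 (adjusted p = 0.00887). After scaling they were 0.47 (limma adjusted p = 0.0940) and 0.89 (adjusted p = 0.0347), and the scaled change in IF was -0.42 (adjusted p = 0.159). Against IF the unscaled call was lost without FED replicate 3 (1.14, adjusted p = 0.0523) or any 1 IF library (adjusted p 0.0908 to 0.110), and the scaled call without FED replicate 2 or 3 or any 1 IF library (adjusted p up to 0.142).

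The other eIF2 kinases were not called in any of the 3 comparisons, with or without scaling. Eif2ak1, the haem-regulated kinase HRI, had 17.11, 19.76 and 20 TPM in FED, 25.8, 27.5 and 24.6 TPM in IF, and 25.2, 29.1 and 28.1 TPM in FMD. Both restricted groups were above FED, with changes of 0.44 in IF (limma adjusted p = 0.0190) and 0.51 in FMD (adjusted p = 0.00358) that were under the limit and came to 0.17 and -0.02 after scaling. Eif2ak4, for GCN2, the kinase that senses uncharged tRNA, had 1.47, 1.23 and 1.30 TPM in FED, 1.63, 2.30 and 1.95 TPM in IF, and 2.39, 1.42 and 2.02 TPM in FMD. FMD overlapped FED, and the changes were 0.34 in IF (limma adjusted p = 0.119) and 0.32 in FMD (adjusted p = 0.0750), or 0.17 and -0.02 after scaling. Eif2ak2, for PKR, which binds double-stranded RNA, had 2.09, 2.92 and 2.49 TPM in FED, 2.54, 4.14 and 3.45 TPM in IF, and 2.62, 2.43 and 2.39 TPM in FMD. All groups overlapped, and the change in FMD was -0.00 (limma adjusted p = 0.991), or -0.40 after scaling (adjusted p = 0.0890).

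Eef2k, the kinase that blocks the elongation factor eEF2, had 1.55, 1.57 and 1.45 TPM in FED, 1.80, 1.18 and 1.20 TPM in IF, and 1.55, 0.86 and 1.68 TPM in FMD. The groups overlapped, and its changes of -0.09 in IF (limma adjusted p = 0.710) and -0.11 in FMD (adjusted p = 0.540) were -0.26 and -0.44 after scaling (adjusted p = 0.271 and 0.0634). Eif4enif1, for the eIF4E transporter, and Eef1aknmt, a methyltransferase of eEF1A, rose in FMD by 0.72 and 0.80 (limma adjusted p = 0.00214 and 0.00370), and by 0.59 and 0.60 without FMD replicate 1, and neither was called after scaling.

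The cytosolic and the mitochondrial synthetases had the lowest medians of the 5 classes in both regimens, though 7 of the 23 were above the all-gene median in FMD. In IF limma called none of the 23 on the deposited values. At an unadjusted p under 0.05 in limma 2 were higher and 1 lower, beside 35.9% and 3.34% of all genes. After scaling limma called 2 lower, Cars and Tars2 (8.70%, beside 3.45% of all genes). At an unadjusted p under 0.05, 8 were then lower and 1 higher, beside 14.5% and 14.9% of all genes. In FMD 6 of 23 rose (26.1%, beside 35.5% of all genes), the cytosolic Gars, Hars, Iars, Lars and Sars and the mitochondrial Iars2. After scaling limma called none. At an unadjusted p under 0.05 in limma 0 were higher and 11 lower, beside 18.2% and 18.1% of all genes. Without FMD replicate 1 only Iars2 remained called in FMD, at 0.64 (4.35%, beside 23.1% of all genes). Synthetases other than those the rule for named genes reached were named after their values were seen.

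Cars, which charges tRNA with cysteine, had 12.2, 12.8 and 14.1 TPM in FED, 9.87, 6.88 and 7.78 TPM in IF, and 21.72, 7.55 and 12.96 TPM in FMD. The IF libraries were all below FED, and FMD spread across both. Its log2 fold change in IF was -0.62 ± 0.28 (limma adjusted p = 0.129), called lower without FMD replicate 1 (adjusted p = 0.0192) or FMD replicate 2, and, after scaling, -0.88 ± 0.23 (adjusted p = 0.0333), a call that was lost without any 1 FED or IF library (adjusted p up to 0.128). In FMD it was -0.00 (limma adjusted p = 0.991), and after scaling -0.52 (adjusted p = 0.140), or -0.75 without FMD replicate 1 (adjusted p = 0.0264).

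Tars2, which charges mitochondrial tRNA with threonine, had 13.4, 12.9 and 12.9 TPM in FED, 10.62, 8.90 and 10.02 TPM in IF, and 18.5, 12.4 and 11.2 TPM in FMD. The IF libraries were below all FED libraries, and FMD overlapped FED. Its change in IF was -0.38 ± 0.16 (limma adjusted p = 0.113) and, after scaling, -0.64 ± 0.11 (adjusted p = 0.00507), which was lost without IF replicate 2 (-0.57, under the limit of fold change). In FMD the scaled change was -0.45 (limma adjusted p = 0.0150), under the limit of fold change.

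The same 2 amino acids recurred in the other compartment. Tars, the cytosolic threonine enzyme, had 65.7, 65.6 and 72.2 TPM in FED, 54.8, 62.2 and 48.5 TPM in IF, and 93.1, 56.2 and 65.4 TPM in FMD. Cars2, the mitochondrial cysteine enzyme, had 9.38, 8.41 and 8.63 TPM in FED, 6.93, 7.40 and 6.22 TPM in IF, and 11.3, 7.59 and 7.35 TPM in FMD. Both were below FED in all IF libraries. Their scaled changes were -0.58 (limma adjusted p = 0.0119) and -0.58 (adjusted p = 0.00507) in IF, just under the limit of fold change, and -0.50 (adjusted p = 0.0155) and -0.53 (adjusted p = 0.00440) in FMD, or -0.59 and -0.60 without FMD replicate 1, where both were called.

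The 5 cytosolic synthetases that rose in FMD had a like pattern, shown by Sars for serine, with 19.4, 17.9 and 19.8 TPM in FED, 23.4, 19.5 and 20.8 TPM in IF, and 67.0, 23.1 and 27.2 TPM in FMD. FMD replicate 1 was far above the rest. The changes of the 5 genes ran from 0.68 for Iars to 0.84 for Sars, and without FMD replicate 1 from 0.32 for Iars to 0.52 for Hars, under the limit. The calls of Gars, Iars and Sars were also lost without any 1 FED library, and that of Lars without FED replicate 1 or 2 (limma adjusted p 0.0527 to 0.0805). Iars2, for mitochondrial isoleucine, had 21.5, 21.6 and 22.4 TPM in FED, 35.0, 31.1 and 28.0 TPM in IF, and 40.8, 34.9 and 34.2 TPM in FMD. Both restricted groups were above FED, with changes of 0.50 in IF (limma adjusted p = 0.0145, under the limit) and 0.72 ± 0.12 in FMD (adjusted p = 0.000998), or 0.18 in FMD after scaling.

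**Figure D3:**
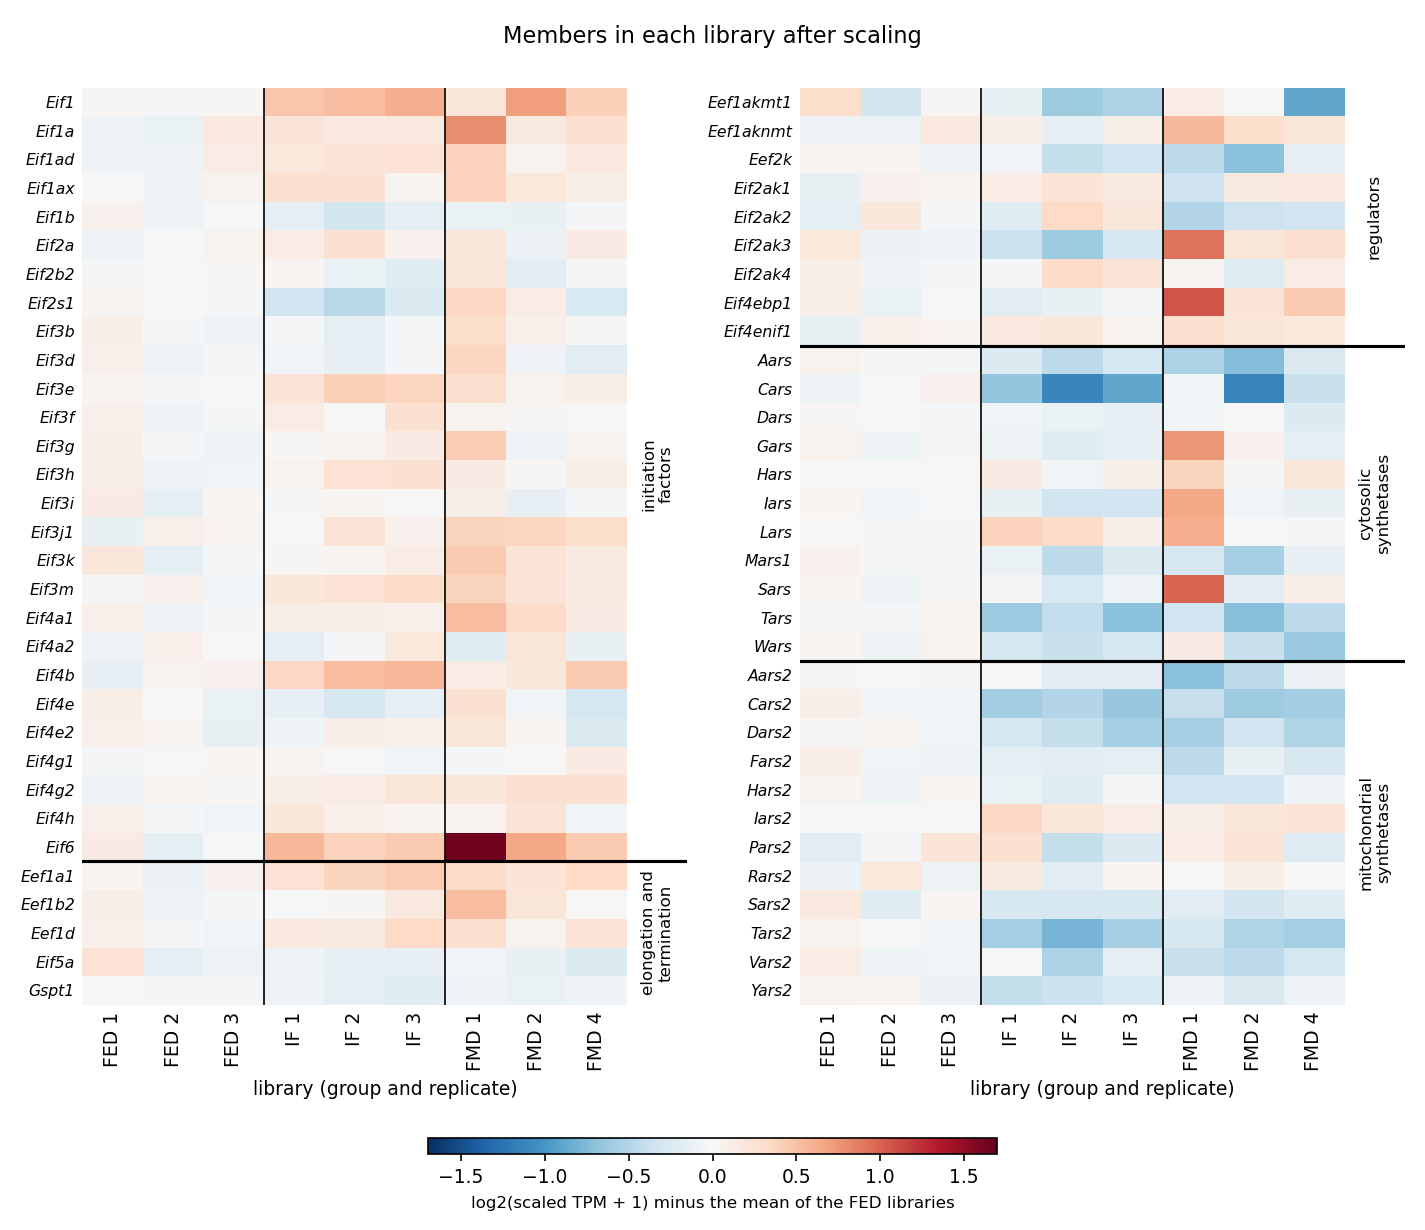
Log2(scaled TPM + 1) of the 64 members in the 9 libraries, each minus the mean of the FED libraries, grouped by class (red higher, blue lower). The mitochondrial synthetases are mostly blue in IF and FMD, Eif1, Eif4b and Eif6 are red in all IF and FMD libraries, and Sars, Gars, Iars and Lars are red in FMD replicate 1 but near 0 in FMD replicates 2 and 4.

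Promoters of cytosolic synthetases were searched for the motif of the stress response. ATF4, the transcription factor made when eIF2 is phosphorylated, binds with C/EBP partners to the letters TGATGNAA (TTNCATCA on the other strand), most often as TGATGCAA (TTGCATCA). RefSeq windows of build GRCm38.p6 from 250 bases before to 50 bases after the start were used for 47 of the 64 members and 27024 genes in all. On either strand TGATGNAA was in 4.51% of all windows and in 4 of the 47 members: 3 of the 6 cytosolic synthetases with a window (Gars, Iars and Tars) and Eef2k. The exact form was in 1.03% of all windows and in Iars and Tars. Neither form was in any of the 9 mitochondrial synthetases or the 21 initiation factors with a window. The stretches are printed in the direction of the gene to show the motif, in capitals, in its exact form where the window held it.
Iars, chr13:49682126-49682155, plus strand, first capital at base 8 after the start: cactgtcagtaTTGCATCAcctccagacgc
Tars, chr15:11399655-11399684, minus strand, first capital 15 bases before the start: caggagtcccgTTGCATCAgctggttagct
Gars, chr6:55037960-55037989, plus strand, first capital 30 bases before the start: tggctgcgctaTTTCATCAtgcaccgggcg
Of these 3, Iars and Gars rose in FMD on the deposited values, calls that were lost without FMD replicate 1 or any 1 FED library. Tars had a log2 fold change of 0.05. After scaling the changes in FMD were 0.16 for Iars, 0.22 for Gars and -0.50 for Tars. A link between the letters and the levels was not tested. A match is a description of these letters and not a site of binding.

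Many mRNAs of the translation machinery start with C and a run of pyrimidines, through which mTORC1 controls their translation. A start with C and at least 5 pyrimidines in a row was at the annotated first base of 3.01% of all windows and of 1 of 47 members, Eif3f, shown here with the run in capitals.
Eif3f, chr7:108934404-108934433, plus strand: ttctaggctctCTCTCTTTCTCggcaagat
The annotated first base can differ from the one used in liver, so these counts hold for the annotation alone.

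Ratios within a library do not depend on scaling and set the classes apart. The geometric mean TPM of the 27 initiation factors over that of the 11 cytosolic synthetases was 1.95, 1.95 and 1.92 in FED, 2.30, 2.61 and 2.56 in IF, and 2.06, 2.70 and 2.36 in FMD. All restricted libraries were above FED, with FMD replicate 1 the nearest to it. Over the 12 mitochondrial synthetases the ratio was 5.29, 5.26 and 5.31 in FED, 6.20, 7.34 and 7.01 in IF, and 7.97, 6.89 and 6.70 in FMD. Here too the groups did not overlap with FED. The cytosolic over the mitochondrial synthetases gave 2.72, 2.70 and 2.76 in FED, 2.70, 2.81 and 2.73 in IF, and 3.87, 2.55 and 2.84 in FMD, so that FMD replicate 1 alone stood apart. Since members were taken as a class after earlier results on them were known, these ratios carry no test.

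**Figure D4:**
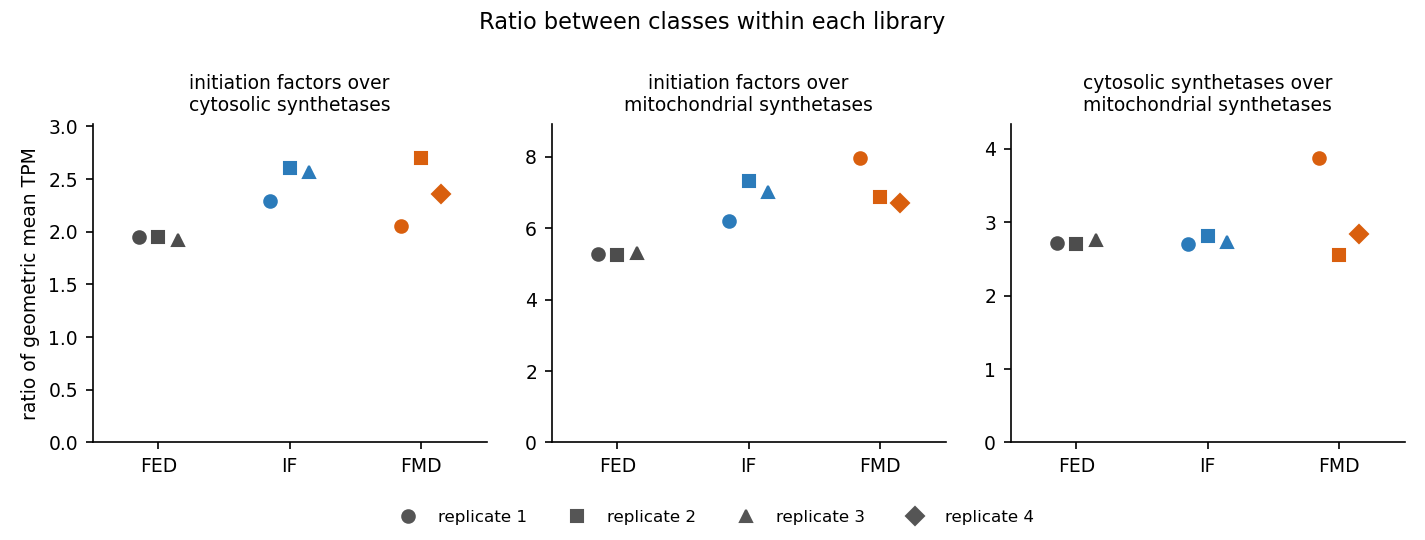
Ratio of the geometric mean TPM of 2 classes of members within each library (axes from 0, marker shape gives the replicate number). Initiation factors over cytosolic or mitochondrial synthetases are above FED in all 6 restricted libraries, and cytosolic over mitochondrial synthetases stay between 2.55 and 2.84 except for 3.87 in FMD replicate 1.

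Other translation genes were read from a list of 52, of which 21 were tested. In IF 2 rose (9.52%, beside 10.3% of all genes) and in FMD 12 (57.1%, beside 35.5%), or 5 without FMD replicate 1 (23.8%, beside 23.1%). After scaling limma called none higher in IF, beside 3.69% of all genes, and 1 higher in FMD (4.76%, beside 5.49%). At an unadjusted p under 0.05 in limma 3 were higher in IF, beside 14.9% of all genes. It called 1 lower in each (4.76%, beside 3.45% of all genes in IF and 5.64% in FMD). Impact, which keeps GCN2 from being switched on, had 2.18, 3.35 and 2.74 TPM in FED, 4.94, 5.05 and 4 TPM in IF, and 10.7, 8.98 and 10.2 TPM in FMD. No overlap was seen between the 3 groups, and its change was 1.55 in FMD vs FED (limma adjusted p = 4.49e-05), 1.097 after scaling (adjusted p = 0.000593), and 0.95 in FMD vs IF (adjusted p = 0.0102), the last lost without IF replicate 3 (0.87, adjusted p = 0.0601). Pdcd4, an inhibitor of eIF4A named after its values were seen, had 43.3, 42.3 and 51.5 TPM in FED, 31.5, 34.1 and 32.4 TPM in IF, and 32.1, 30.6 and 34.9 TPM in FMD. It was below FED in all restricted libraries, with changes of -0.47 in IF and -0.47 in FMD that were under the limit of fold change and -0.74 and -1.01 after scaling (limma adjusted p = 0.00578 and 0.000706).

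Of 40 targets of the integrated stress response, the program that follows phosphorylation of eIF2, 27 were tested. In IF 3 rose (11.1%, beside 10.3% of all genes) and none fell, beside 1.59%. At an unadjusted p under 0.05 in limma 1 was lower, beside 3.34% of all genes. After scaling 2 rose in IF (7.41%, beside 3.69% of all genes). Chac1, which breaks down glutathione, was the 1 that fell (-0.998, limma adjusted p = 0.0302), or 3.704% beside 3.45%. FMD replicate 1 enters the shared spread. After scaling without it, 2 rose and 3 fell in IF (7.41% and 11.1%, beside 4.07% and 4.27% of all genes). On the deposited values without it, 5 rose in IF (18.5%, beside 11.04% of all genes). In that unscaled fit 3 fell, Asns, Chac1 and Mthfd2 (11.1%, beside 1.99%). In FMD 17 rose (63.0%, beside 35.5% of all genes), with a median of 1.005 beside 0.48 for all genes. Without FMD replicate 1, 16 rose (59.3%, beside 23.1%) and 2 fell (7.41%, beside 1.91%), among them Asns (-1.11, limma adjusted p = 0.0499). Some targets, named after their values were seen, were far higher in FMD replicate 1 than in replicates 2 and 4. Asns had 17.33, 3.28 and 1.78 TPM in these libraries, Psat1 24.83, 1.30 and 1.08 TPM, Ddit3 121, 11.82 and 12.07 TPM, and Mthfd2 13.49, 1.38 and 0.95 TPM. After scaling with all libraries 6 rose (22.2%, beside 5.49%), with a median of 0.48 beside 0.01. Cebpb, a partner of ATF4, had 77.4, 63.1 and 60.9 TPM in FED, 89.5, 87.3 and 96.1 TPM in IF, and 178.9, 211.9 and 212.9 TPM in FMD. The 3 groups did not overlap, and its scaled change in FMD vs FED was 1.03 (limma adjusted p = 0.00306). Gpt2, the mitochondrial alanine transaminase, had 86.1, 71.9 and 91.4 TPM in FED, 295, 277 and 198 TPM in IF, and 503, 454 and 152 TPM in FMD. Both restricted groups were above FED, with scaled changes of 1.32 in IF (limma adjusted p = 0.0270) and 1.42 in FMD (adjusted p = 0.0148). Its scaled call in IF was lost without any 1 FED library or IF replicate 1 or 2 (adjusted p up to 0.0972), its unscaled call without IF replicate 1 or 2 (adjusted p = 0.0564 and 0.0536), and its scaled call in FMD without FED replicate 2 (adjusted p = 0.0534).

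Xpot, the exporter of tRNA from the nucleus, had 13.7, 14.4 and 14.0 TPM in FED, 29.2, 27.6 and 22.2 TPM in IF, and 38.1, 26.5 and 30.3 TPM in FMD. Both restricted groups were above FED, with a scaled change of 0.59 in IF (limma adjusted p = 0.00638) that fell under the limit of fold change without FED replicate 1 or 3 or IF replicate 1 or 2 (0.53 to 0.58). Ppp1r15a, the phosphatase subunit that reverses eIF2 phosphorylation, had 6.04, 7.51 and 5.05 TPM in FED, 6.71, 8.98 and 7.98 TPM in IF, and 22.3, 11.5 and 12.4 TPM in FMD. The FMD libraries were above all others, with a scaled change against FED of 0.64 (limma adjusted p = 0.0332) that was lost without FMD replicate 1 (0.47, adjusted p = 0.0736), FED replicate 1 or 3 or IF replicate 3 (adjusted p 0.0517 to 0.118). Chac1, which degrades glutathione, had 1.58, 3.47 and 2.44 TPM in FED, 0.93, 0.83 and 1.13 TPM in IF, and 11.6, 4.07 and 6.70 TPM in FMD. The groups did not overlap, with the order IF, FED, FMD and a scaled change of 1.77 in FMD vs IF (limma adjusted p = 0.0131) that was lost without IF replicate 1 or 2 (adjusted p = 0.0569 and 0.0674).

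Of 57 genes listed for the mTORC1 pathway, 23 were tested. Not all of them regulate mTORC1, such as Mknk2 and the ribosomal protein gene Rps6. In IF limma called none, beside 10.3% of all genes called higher, and 8 were higher at an unadjusted p under 0.05, beside 35.9% of all genes. In FMD 10 rose (43.5%, beside 35.5% of all genes), or 5 without FMD replicate 1 (21.7%, beside 23.1%). The median in FMD was 0.54 beside 0.48 for all genes, and 2, Mknk2 and Sesn2, rose after scaling (8.70%, beside 5.49% of all genes). Mknk2, which phosphorylates eIF4E, had 43.2, 22.7 and 33.9 TPM in FED, 57.7, 47.4 and 49.8 TPM in IF, and 163, 158 and 93.5 TPM in FMD. No overlap was seen between the 3 groups, and its change was 2.03 in FMD vs FED (limma adjusted p = 0.000233), 1.48 after scaling (adjusted p = 0.00197), and 1.09 after scaling in FMD vs IF (adjusted p = 0.0365), the last lost without FED replicate 3, FMD replicate 1 or 2 or any 1 IF library (adjusted p 0.0575 to 0.142). Sesn2, a leucine sensor that restrains mTORC1 and is on the stress response list too, had 2.95, 2.34 and 2.01 TPM in FED, 4.04, 4.16 and 3.97 TPM in IF, and 13.6, 8.98 and 4.19 TPM in FMD. The 3 groups did not overlap, and its scaled change in FMD vs FED was 0.97 (limma adjusted p = 0.0201), lost without FED replicate 2 or 3 or FMD replicate 2 (adjusted p 0.0588 to 0.0768).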

How the data were processed

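RNA of 9 livers, 3 each of FED, IF and FMD, was analysed from the deposited TPM values. The authors had prepared strand-specific DNBSEQ libraries and normalized the values. The submitters' processing notes name mm39 and DESeq2, and the aligner and annotation are not given in the sources used here. All columns belonged to the series (0 outside it). Samples were grouped by their labels. Values were tested as log2(TPM + 1) in limma 3.58.1 (R 4.3.3, trended variance, 9 libraries in 1 fit, Benjamini-Hochberg over the 4665 genes of mean TPM of at least 1), which was tested on simulated data. Fold changes on this scale understate the change of low genes. p-values measure the spread between these mice, pooled over the 3 groups, so FMD replicate 1 enters it for IF vs FED too. Members, lists and classes were chosen with earlier results of these data known. Named with all values were, per comparison, the 6 called members of largest change whose groups did not overlap, members called with and without scaling, the 5 most abundant, and fixed regulators (18 in all), plus Cars and Tars2, called after scaling only. From each list, up to 4 genes per comparison called with and without scaling were named. Alternatives were scaling, quantile normalization, pseudocounts of 0.1 and 5, no filter, 1 fit per pair of groups, no trend, other limits, a replicate block and omission of each library. Promoter sequences are RefSeq's (GRCm38.p6), another build than the notes name. 1 member's promoter window is not reported here.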

Additional observations from a re-analysis of the deposited data

How the results depend on the processing

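In IF vs FED the 4 called members were all higher. After scaling none of the 4 was called and 2 others, Cars and Tars2, were lower, and with quantile normalization 2 were called, both lower. The count was 11 without a limit of fold change and ran from 2 (without FED replicate 2 or IF replicate 2) to 6 (without FMD replicate 1) when 1 library was left out. The 2 called after scaling ran from 1 to 3. In FMD vs FED the count of 31 became 2 after scaling and 2 with quantile normalization, and ran from 15 (without FMD replicate 1) to 42 (without FMD replicate 4). The 2 called higher after scaling became 0 to 3, and the 3 called without FMD replicate 1 were lower. In FMD vs IF the count of 2 became 1 after scaling, 1 without a filter, 1 with quantile normalization, 0 with 1 fit per pair of groups and 0 at an adjusted p under 0.01, and ran from 0 to 14 (without FMD replicate 4), and the 1 after scaling ran from 0 to 3. The cause was not tested. Except for the fits reported above, the share of all genes called is not given beside these counts, so they are no result about the members. Where an omission left 2 libraries, they were assumed to vary like the other groups. Over the named genes' values, 986 alternatives left it unchanged whether a gene was called, 67 lost a call, 27 gained one, and 0 turned a called direction. Most of the 986 are results that were not called and stayed so, and omissions after scaling are not in the tally. The tally therefore does not measure how firm the calls are. Among the 986, changes that were not called could turn sign, as Eif5a in FMD did after scaling (0.41 to -0.14). The depth of the libraries is unknown.

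The replicate numbers did not pair the samples: correlations of same-numbered libraries' deviations ran from 0.0035 to 0.18, and 2 of the 6 FED and IF libraries correlated best with their own number. With a replicate block, in which FMD replicate 4 has no partner and adds nothing, limma called 5 members in IF vs FED, 41 in FMD vs FED and 14 in FMD vs IF, and after scaling 2, 4 and 3. The share of all genes called with the block is not given here, so these counts are no result about the members.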
